A study of Mus musculus with 26 samples.

Results

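Variation among 12 of 26 mouse exon arrays, those titled ES1 to ES12, was described gene by gene. The arrays were chosen by title, after earlier results of these data had shown blood cell genes to be bright in them, and the genes described were chosen by their spread over these same arrays. Levels, spreads and shared patterns are therefore descriptions, with no test. All 12 carry the strain label 129S2/SvPas, which 14 arrays have. The other 2 of that label are ES13 and ES14, and the remaining 12 arrays are labelled C57BL/6. The series title names mouse ES and EB, taken to mean embryonic stem cells and the clumps they form when differentiating, called embryoid bodies. The labels call every sample an embryoid body cell. They give no treatment, time, age, genotype or dissection that would separate ES1 to ES12 from each other. Nothing states that the 12 came from separate cultures or animals, so the spread between them may be biological or technical. RNA was amplified in 2 rounds before labelling, which can stretch differences between samples.

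Granulocytes are white blood cells packed with storage granules, which they build in order as they mature. Neutrophil precursors first fill primary granules with myeloperoxidase and serine proteases, and later, under the transcription factor C/EBP-epsilon, fill secondary and tertiary granules with lactoferrin, cathelicidin and gelatinase. Eosinophils store a peroxidase of their own and a crystalline core of major basic protein. Mast cells and basophils store histamine and proteases such as carboxypeptidase A3 and chymases, and depend on GATA factors. Progenitors carry Cd34, Kit and HoxA genes, which go down as neutrophil precursors mature, whereas mast cells depend on Kit and also carry Cd34.

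Against these markers, the 12 arrays showed a myeloid pattern with gaps. Myeloperoxidase (Mpo) lay between 11.97 and 13.31 on the log2 scale in all 12, against 4.83 to 7.77 in the arrays labelled C57BL/6, and Cpa3 between 9.98 and 13.00 against 3.39 to 4.83. Among eosinophil genes, the interleukin-5 receptor Il5ra (3.55 to 4.61) and the eotaxin receptor Ccr3 (3.06 to 4.42) were low in all 12. Among mast cell genes, the tryptases Tpsab1 and Tpsb2 did not exceed 6.55, and the receptors Mrgprb1 and Mrgprb2 did not exceed 4.55. Il2ra and Gzmb are best known from T cells and killer cells, but Cd3d, Cd3e and Cd3g reached at most 6.50 and the perforin gene Prf1 at most 7.10. Of 19 measured genes on the T cell list, 2 had a maximum above 8 (Thy1 and Il7r), as did 2 of 19 on the cytotoxic list (Gzmb and Nkg7). The adult beta globin Hbb-b1 was bright, but the erythroid genes Alas2, Slc4a1 and Klf1 did not exceed 6.51. Arrays measure pooled RNA, so fewer cells of a type and less RNA per cell cannot be told apart in any result below.

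Most genes differed little among the 12 arrays. A gene value is the median, in log2 units, over the brighter 50% of the probe sets that read a gene, and 18341 genes had at least 4 probe sets. Of these, 8848 had a maximum above 8 among the 12 arrays, and their median SD was 0.28 log2 units with a median range of 0.92. In 7704 of them (87.1%) the SD was below 0.5. An SD above 1 was reached by 155 genes, 0.845% of all genes, and a range of at least 4, which is a 16-fold difference, by 51 genes, 0.278% of all genes. Just inside the SD limit was Cxcl10 with 1.004, and just outside was the unnamed transcript A530064D06Rik with 0.994. Just inside the range limit was Aqp8 with 4.00, and just outside was Serpinf1 with 3.98. Odd-ranked and even-ranked probe sets of a gene gave similar patterns over the arrays: for the 155 genes their correlation had a median of 0.987 and was lowest at 0.859. The 12 arrays labelled C57BL/6 held 849 genes by the same SD limit, of which 45 were among the 155, so 45 are 29.0% of the one list and 5.30% of the other.

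**Figure D1:**
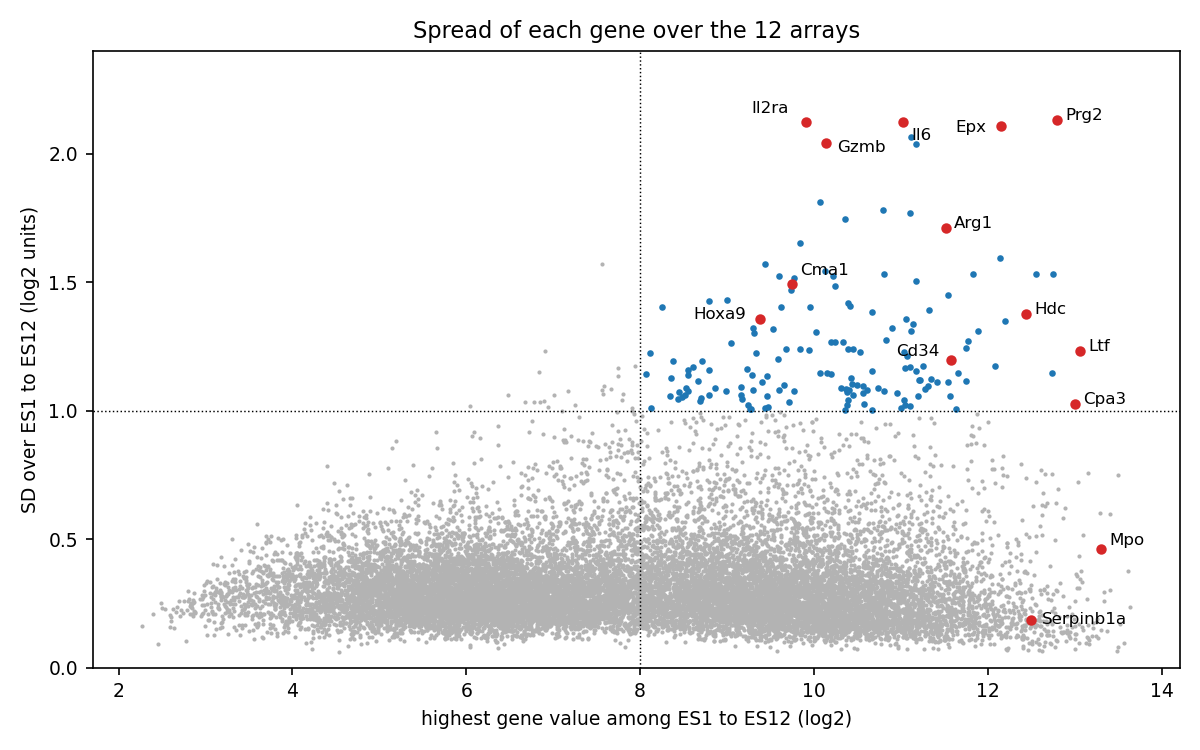
SD over ES1 to ES12 (vertical axis, log2 units) against the highest of the 12 values (horizontal axis, log2) for 18341 genes. Blue points are the 155 genes beyond both dotted limits, a maximum above 8 and an SD above 1; red points are named genes, with Prg2, Il6, Il2ra and Epx at the top and Mpo and Serpinb1a low at the bright end.

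The 20 named genes with the largest SD ran from Prg2 (2.13) to Serpinb2 (1.53). They were the eosinophil granule genes Prg2 and Epx, the cytokines Il6 and Il1a, the receptors Il2ra and Tnfrsf9, the granzyme Gzmb, the opioid peptide precursor Penk, the granule glycoprotein Olfm4, the arginine-splitting enzyme Arg1, the transglutaminase Tgm2, the steroid dehydrogenase Akr1c18, the cysteine-making enzyme Cth, the sugar-making enzyme Fbp1, the carbonic anhydrase Car4, the clotting factor subunit F13a1, the protease inhibitors Serpinb10 and Serpinb2, the fatty acid carrier Fabp4 and Hbb-b1. The spread was graded rather than split: the largest gap between neighbouring values covered a median of 27.2% of a gene's range, and exceeded 50% of it in 3 of the 155 genes (Aqp8, Laptm4b and Orm1, named after their values were seen). ES5 was the lowest array for 61 of the 155 genes (39.4%) and ES6 for 29 (18.7%). Of the 8848 genes with a maximum above 8, ES5 was lowest in 7.32% and ES6 in 14.5%, while ES5 was highest in 19.6%. ES9 was the highest for 32 of the 155 (20.6%), ES11 for 29 (18.7%), ES4 for 28 (18.1%) and ES10 for 23 (14.8%). Of the 8848, these arrays were highest in 10.2%, 5.18%, 14.1% and 6.42%.

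ES4 stood furthest from the other arrays. Its mean correlation with the other 11 over all gene values was 0.966, against 0.972 to 0.979 in the others, and its median gene value of 7.01 was below the 7.20 to 7.35 of the rest. It was the lowest array in 22.3% of the 8848 bright genes. Without ES4, 139 genes passed the SD limit and 42 the range limit. The closest pair was ES5 and ES7, with r = 0.992, and no 2 arrays held identical values.

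Eosinophil granule genes gave the widest shared pattern. Prg2, which encodes major basic protein, was lowest at 6.40 in ES5, had a median of 10.90 and was highest at 12.80 in ES9, an 84.4-fold range (SD 2.13, n = 12). It was at 7.86 to 8.94 in ES2, ES6, ES7 and ES8, and at 10.83 or more in the other 7 arrays, so 1.88 log2 units separated the 2 sets of values. Epx, the eosinophil peroxidase, had its lowest value of 6.01 in ES5, a median of 9.70 and its highest value of 12.16 in ES9 (SD 2.11, a 70.8-fold range). ES5, ES8, ES6, ES7 and ES2 were again the 5 low arrays, between 6.01 and 7.71, and ES5 was close to the 5.47 to 5.94 of the arrays labelled C57BL/6. The ribonuclease gene Ear6 ran from 5.71 in ES7 to 10.24 in ES9, with ES4 second at 9.46. Prg3, a homologue of major basic protein, ran from 5.00 in ES2 to 8.07 in ES9. The lipid-oxidising enzyme Alox15 was at 9.41 in ES9 and 8.62 in ES10 but between 5.97 and 7.75 in the other 10 arrays.

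All 5 bright genes of the eosinophil list passed the SD limit, 5 of 7 measured (71.4%, against 0.845% of all genes). Over the 12 arrays their 10 pairwise correlations ran from 0.78 to 0.97, where pairs among the 1144 bright genes with an SD of at least 0.5 had a median of 0.13. Regardless of sign, the median of those pairs was 0.46, and 9.63% of them reached 0.8. Epx followed Prg2 with r = 0.97 (Spearman rho 0.91, and 0.97 without ES5 and ES8, the 2 arrays farthest from the Epx median). The genes were chosen by their spread over these same arrays and list members by what they are known for, so these correlations carry no p-value. Ear6 belongs to a family of near-identical genes. The ranges of Ear6 and Prg3, 4.53 and 3.07, became 7.24 and 6.41 when probe sets were ranked over ES1 to ES12 alone.

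**Figure D2:**
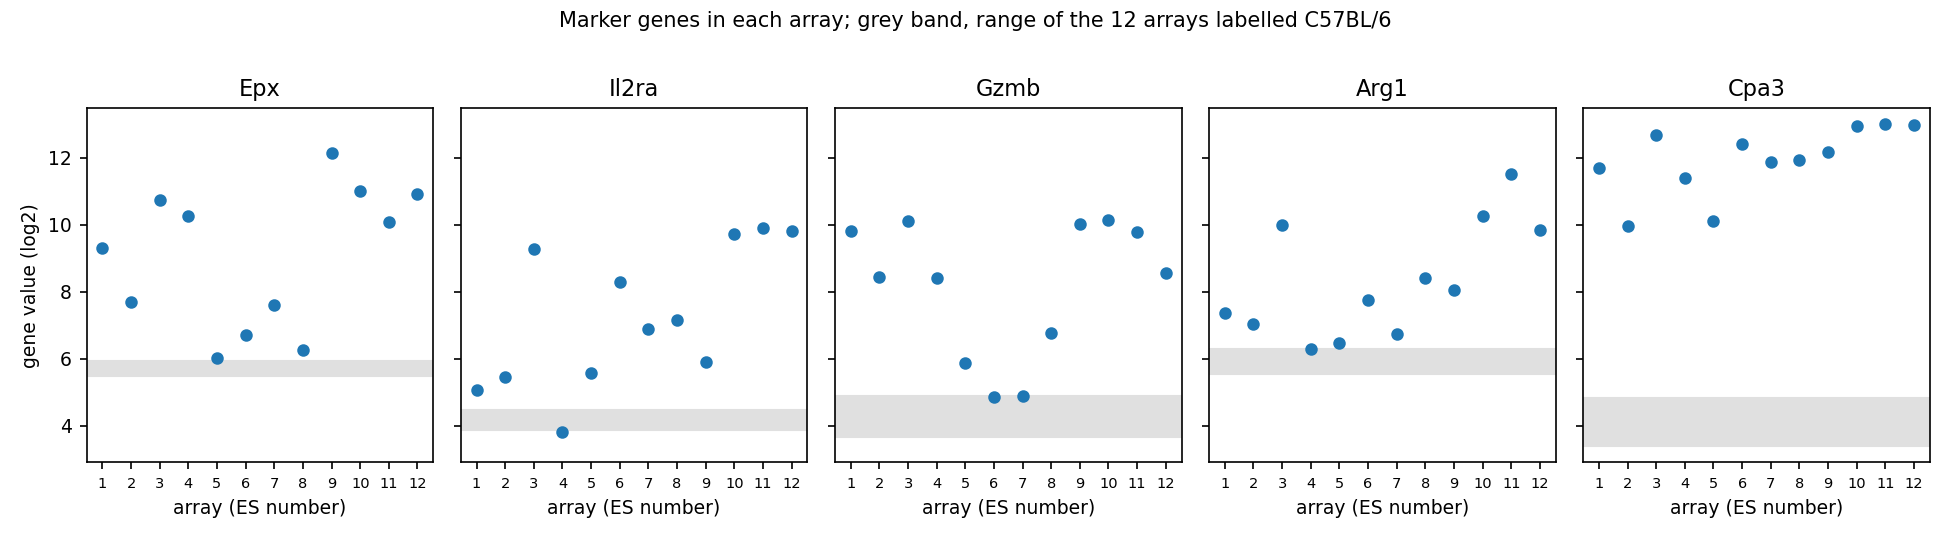
Gene values (log2) of Epx, Il2ra, Gzmb, Arg1 and Cpa3 in each of ES1 to ES12, 1 point per array; the grey band is the range of the 12 arrays labelled C57BL/6. Epx, Il2ra, Gzmb and Arg1 fall to or near the band in at least 1 array, whereas Cpa3 is at 9.98 or more in all 12.

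The peroxidase genes Mpo and Epx lie close together on chromosome 11 in the RefSeq gene order, with Lpo and Mks1 between them, and they did not share a pattern. Mpo had an SD of 0.46 and was highest in ES7 (13.31) and ES5 (13.23), arrays in which Epx was low, and lowest in ES3 (11.97). The correlation of Epx with Mpo was -0.51 (rho -0.50). Lpo, the lactoperoxidase gene, stayed between 4.99 and 5.85, and Mks1, a ciliary gene, between 6.71 and 7.60. The neighbours Prg2 and Prg3 on chromosome 2 were both highest in ES9 and both low in ES2 and ES5 to ES8. In ES1 they parted, with Prg2 at 10.83 and Prg3 at 5.65, near its low arrays.

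Mast cell and basophil genes shared part of the eosinophil pattern. Hdc, which makes histamine, was lowest at 7.84 in ES5, had a median of 10.97 and was highest at 12.44 in ES3. ES12, ES11 and ES10 were at 12.25 or more. Without ES5 its range dropped from 4.60 to 2.89. Cma1, a mast cell chymase, was between 5.34 and 6.83 in ES1, ES2 and ES4 to ES8, and between 8.07 and 9.75 in ES3 and ES9 to ES12, and with the median over all its probe sets its range was 2.73 and not 4.41. Cpa3, the mast cell carboxypeptidase, had a narrower spread (SD 1.03), from 9.98 in ES2 and 10.12 in ES5, through a median of 12.06, to 13.00 in ES11 and ES12. The other 10 arrays lay at 11.40 or more, and ES6, low for Epx, was among the high ones with 12.40. Hpgds, which makes prostaglandin D, differed, with its lowest value of 5.61 in ES6 and its highest of 9.46 in ES4, and its range of 3.85 was 2.56 by the mean over all its probe sets. The cholesterol side-chain enzyme Cyp11a1 ran from 8.25 in ES5 to 11.63 in ES11. Of 19 measured mast cell genes, 11 had a maximum above 8 and 5 passed the SD limit (26.3%, against 0.845% of all genes). Kit, the stem cell factor receptor that mast cells depend on, ran against Cpa3, with r = -0.65 (rho -0.81), and was highest in ES5 (9.81) and lowest in ES11 (7.56).

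Among basophil genes, Il6 had the widest range of any named gene, from 3.84 in ES5 through a median of 8.89 to 11.02 in ES3. ES7 (6.05), ES6 (7.02) and ES2 (7.13) were the next lowest, and ES11, ES10 and ES12 were above 10. The cytokine is made by many myeloid cells. The surface receptor Cd200r3 ran from 4.55 in ES5 to 9.30 in ES3. The basophil protease Mcpt8 lay between 9.41 in ES6 and 11.83 in ES10. Prss34, another basophil protease, departed from these: it was highest in ES4 (11.21) and ES1 (10.68), lowest in ES5 (7.40) and next lowest in ES11 (8.20). The alpha chain of the IgE receptor, Fcer1a, did not exceed 7.22.

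The transcription factor genes tied to these lineages varied less. Gata2 ran from 7.70 in ES5 to 10.27 in ES3, a range of 2.57 that dropped to 1.67 without ES5, and Gata1 from 6.43 in ES5 to 8.17 in ES10, a range of 1.74 that was 2.85 with the median over all its probe sets. Cpa3 and Gata2 had r = 0.78 (rho 0.78), and Epx and Gata1 r = 0.83 (rho 0.82). The promoters of 2 mast cell genes and 2 eosinophil genes are shown because GATA factors are known regulators of these lineages, and capitals mark GATA letters, which are AGATAA together with AGATAG, and likewise TGATAA together with TGATAG, on either strand. The sequences are from RefSeq on build GRCm38.p6, 250 bases before to 50 after the gene start: Cpa3 at chr3:20242132-20242431 (minus strand), Hdc at chr2:126618629-126618928 (minus strand), Prg3 at chr2:84987965-84988264 (plus strand) and Epx at chr11:87875487-87875786 (minus strand).
Cpa3: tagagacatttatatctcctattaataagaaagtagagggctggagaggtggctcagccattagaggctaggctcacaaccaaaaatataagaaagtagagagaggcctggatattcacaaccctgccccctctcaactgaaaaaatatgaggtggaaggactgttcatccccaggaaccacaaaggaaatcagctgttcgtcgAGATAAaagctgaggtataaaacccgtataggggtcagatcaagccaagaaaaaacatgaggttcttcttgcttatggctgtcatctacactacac
Hdc: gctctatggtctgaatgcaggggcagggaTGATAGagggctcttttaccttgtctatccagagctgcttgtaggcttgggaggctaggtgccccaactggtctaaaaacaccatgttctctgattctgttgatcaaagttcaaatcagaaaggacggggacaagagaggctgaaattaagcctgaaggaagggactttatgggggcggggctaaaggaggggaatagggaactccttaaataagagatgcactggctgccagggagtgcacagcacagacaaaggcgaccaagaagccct
Prg3: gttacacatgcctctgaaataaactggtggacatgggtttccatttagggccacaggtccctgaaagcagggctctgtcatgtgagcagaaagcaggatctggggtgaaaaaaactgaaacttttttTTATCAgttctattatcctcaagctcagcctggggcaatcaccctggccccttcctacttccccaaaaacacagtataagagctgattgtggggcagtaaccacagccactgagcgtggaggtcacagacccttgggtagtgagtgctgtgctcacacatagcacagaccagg
Epx: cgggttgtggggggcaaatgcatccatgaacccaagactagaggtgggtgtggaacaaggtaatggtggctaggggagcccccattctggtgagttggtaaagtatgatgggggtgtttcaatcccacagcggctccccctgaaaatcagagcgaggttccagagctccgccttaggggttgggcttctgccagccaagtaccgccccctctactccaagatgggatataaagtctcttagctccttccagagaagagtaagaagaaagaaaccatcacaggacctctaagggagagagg
Cpa3, Hdc and Prg3 each held 1 match and Epx held 0. In all, 7 of 13 promoters looked at held at least 1, chosen after the genes' values were seen, and 29.8% of all 32851 promoters in the table did. Among those not shown, Cma1, Il6, Prss34 and the neutrophil gene Ltf held 1 match each. The eosinophil gene Ear6, the basophil gene Mcpt8, Mpo, Gzmb and Il2ra held 0, so the matches did not follow cell type. Of 143 promoters listed for 115 of the 155 genes with an SD above 1, 37.8% held GATA letters. The PU.1 letters GAGGAA were in 39.9% of these 143 and 28.3% of all, and the C/EBP letters TTGCNNAA in 12.6% and 10.8%. These matches describe letters in a window and not binding.

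Neutrophil genes separated by granule type. Ltf, which encodes lactoferrin of secondary granules, was lowest at 9.26 in ES6 and 9.28 in ES5, had a median of 11.46 and was highest at 13.06 in ES4 (SD 1.23). ES9 (12.66) and ES1 (12.59) were next. The cathelicidin gene Camp ran from 9.21 in ES5 to 12.74 in ES4, and the chitinase-like gene Chil1 and the integrin gene Itgb2l were also lowest in ES5 and highest in ES4. Padi4, which citrullinates histones, was lowest in ES5 (7.70) and highest in ES3 (11.04). Olfm4 and Mmp9, the gelatinase of tertiary granules, were widest. Olfm4 lay at 5.37 to 5.62 in ES2, ES5 and ES6 and reached 10.07 in ES12, whereas Mmp9 was highest in ES9 (10.39) and lowest in ES5 (5.48). All 17 genes of the secondary and tertiary granule list were measured and bright, and 7 passed the SD limit (41.2%, against 0.845% of all genes). The other 10 included Lcn2 (11.65 to 13.06) and Chil3 (11.45 to 13.09), which were bright in all 12 arrays. Chil3 has a near-identical paralog, Chil4, and the arrays may not tell the 2 genes apart.

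Primary granule genes varied about as little as bright genes in general. Of 10 bright members, 0 passed the SD limit, which 1.75% of all bright genes did. Their median SD was 0.35, against 0.28 for all bright genes. Mpo had a median of 12.61, and the proteases Prtn3 (12.08 to 13.02) and Ctsg (11.97 to 13.06) and the progenitor membrane gene Ms4a3 (11.94 to 13.07) were as narrow. Mpo, Prtn3 and Ms4a3 varied together in this narrow band, with r = 0.88 for Mpo and Prtn3 and 0.89 for Mpo and Ms4a3, and all 3 were highest in ES5 and ES7, where Ltf was low. Ltf and Mpo had r = -0.49, but -0.15 without ES5 and ES6, the 2 arrays farthest from the Ltf median. The lymphocyte and granule gene Nkg7 was the one member with an SD of at least 0.5.

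**Figure D3:**
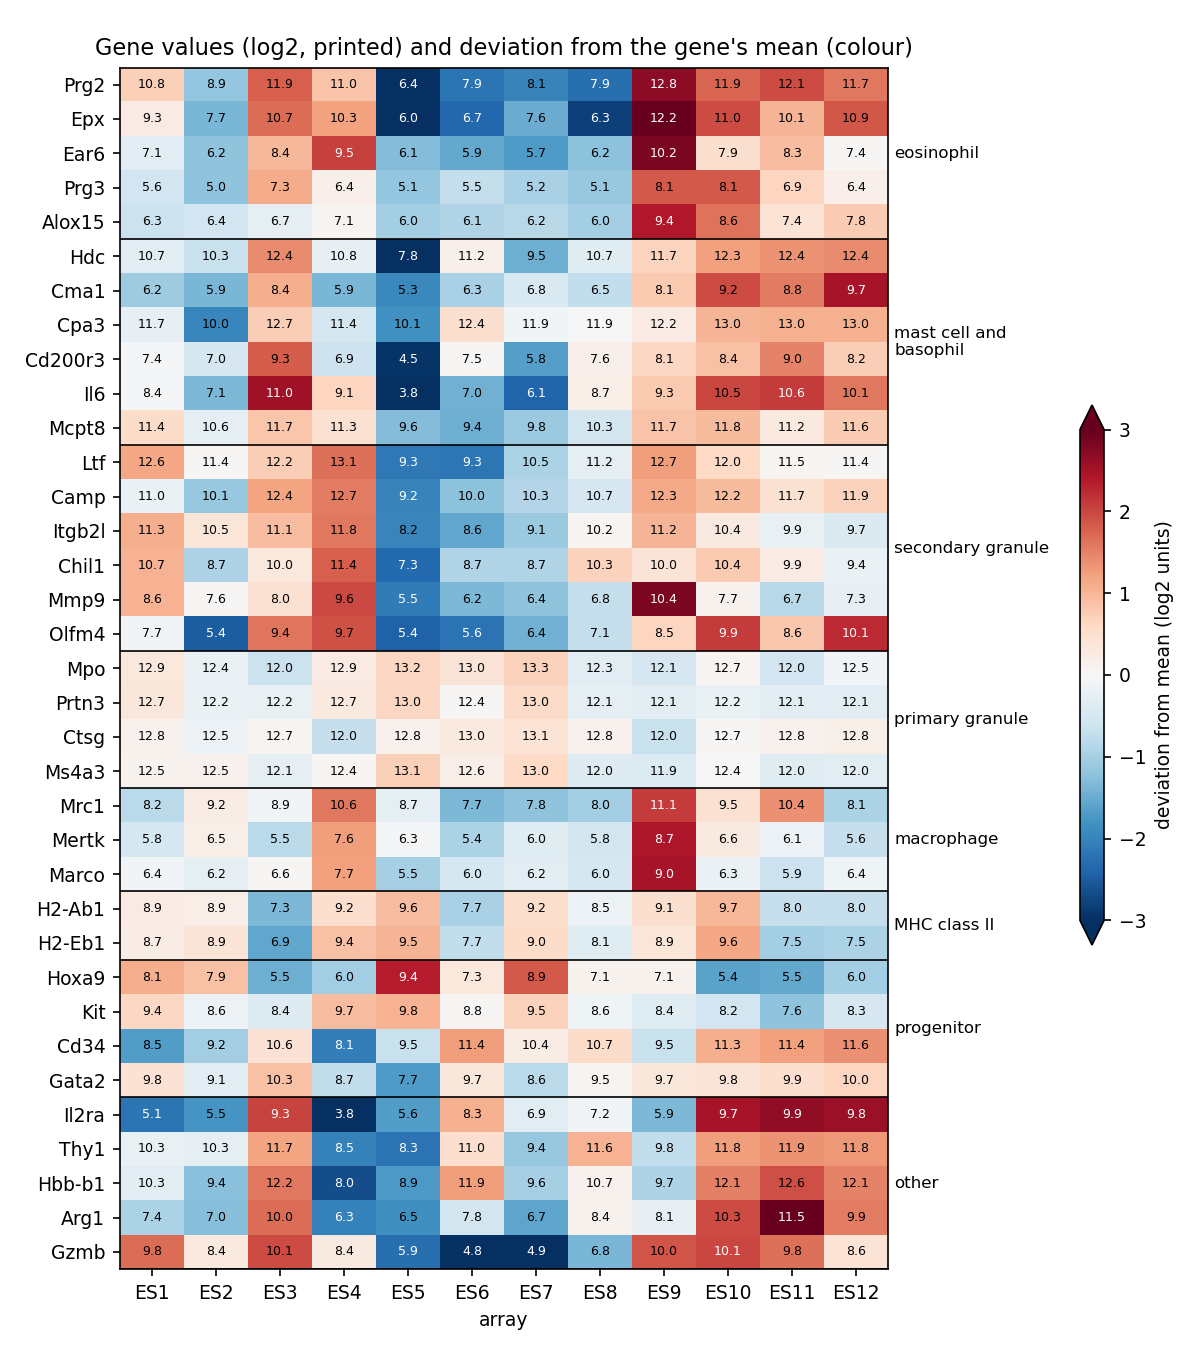
Values of 35 genes (rows, grouped by the type of cell or protein) in ES1 to ES12 (columns), printed in log2, with colour showing the deviation from the gene's own mean over the 12 arrays. Eosinophil and secondary granule rows are blue in ES5, ES6 and ES7 and red in ES9, while primary granule rows stay pale.

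Of 14 measured genes of mature neutrophils, all bright, the receptors Cxcr2 and Fpr2 passed the SD limit (14.3%, against 0.845% of all genes). The 2 receptors differed in pattern. Cxcr2, the chemokine receptor that brings neutrophils out of the marrow, ran from 7.76 in ES5 to 11.35 in ES3, and was at 9.92 in ES6, where Ltf was lowest, and 9.32 in ES4, where Ltf was highest. The formyl peptide receptor Fpr2 ran from 6.75 in ES6 to 10.58 in ES9, with ES4 at 10.17. The scores of the whole mature neutrophil and secondary granule lists had r = 0.95 (rho 0.94). S100a8, a calcium-binding protein abundant in neutrophils, stayed between 11.86 and 12.70. Cebpe, the factor behind secondary granules, ran only from 10.09 in ES5 to 11.23 in ES1, and its correlation with Epx was 0.37, or 0.10 without ES5.

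Progenitor genes did not vary as one group. Among the 8 bright members with an SD of at least 0.5, 16 of 28 pairs had a correlation below 0. Hoxa9, which keeps progenitors dividing, was at 9.37 in ES5, 8.86 in ES7, 8.12 in ES1 and 7.89 in ES2, had a median of 7.13, and was between 5.41 and 6.00 in ES3, ES4, ES10, ES11 and ES12. Its partner Meis1, with a maximum of 6.95, followed it (r = 0.80, rho 0.78). Cd34, the surface marker of progenitors that mast cells also carry, was lowest at 8.13 in ES4 and 8.53 in ES1, had a median of 10.52 and was highest at 11.57 in ES12, with ES6, ES11 and ES10 at 11.30 or more. Hoxa9 and Cd34 thus had r = -0.40, and -0.65 without ES4. Progenitor genes with little spread were Msi2 (SD 0.24), Cdk6 (0.29) and Lmo2 (0.37). The leukaemia-associated factor Runx1 (9.75 to 10.98) and Myb (9.60 to 11.19) were bright throughout.

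Il2ra, the alpha chain of the interleukin-2 receptor, differed from Epx in pattern. It varied with Arg1 (r = 0.89, rho 0.87) and Cpa3 (0.78, rho 0.92). It was at 3.81 in ES4, below the 3.86 to 4.46 of the arrays labelled C57BL/6, between 5.05 and 5.90 in ES1, ES2, ES5 and ES9, at 6.90 and 7.15 in ES7 and ES8, and between 8.30 and 9.91 in ES3, ES6, ES10, ES11 and ES12 (SD 2.12). Thus ES9, highest for Epx, was low for Il2ra, and ES6, low for Epx, was high, and the correlation of the 2 genes was 0.26 (rho 0.27). It was 0.41 without ES4, 0.40 without ES9 and 0.17 without ES5, ES10 or ES12. Genes that resembled Il2ra most were the actin regulator Fmnl2 (r = 0.96), the zinc transporter Slc39a8 (0.95) and Hbb-b1 (0.94), and those most opposed were the LIM-domain gene Lmo1 (-0.96), Foxred2 (-0.94) and the focal adhesion gene Tns3 (-0.92). Cd34 (r = 0.94) and the surface protein Thy1 (r = 0.85) were alike too. Hbb-b1 ran from 7.96 in ES4 to 12.55 in ES11, but has only 4 probe sets and close paralogs, and averaging all of them gave a range of 2.08 and not 4.59. Of the 21 bright cytokine receptor genes, Il7r was the other one past the SD limit (7.09 in ES7 to 10.07 in ES11). The next widest interleukin receptor gene was Il13ra1 (7.77 to 9.90), and the steadiest was Il4ra (10.78 to 11.28).

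Arg1 was closer to Il2ra, and Gzmb to Epx. Arg1, the arginase of alternatively activated macrophages, had its lowest value of 6.28 in ES4, a median of 7.91 and its highest value of 11.52 in ES11, with ES10, ES3 and ES12 at 9.86 or more and the other 8 arrays at 8.42 or less. It correlated with Il2ra (r = 0.89, rho 0.87) and Cpa3 (0.79, rho 0.89) more than with Epx (0.50, rho 0.48). Its nearest genes were the matrix protein gene Ccn3 (0.96), the lysosomal galactosidase Glb1 (0.96) and the annexin Anxa6 (0.95). Gzmb, a granule protease, was at 4.85 in ES6, 4.87 in ES7, 5.88 in ES5 and 6.75 in ES8, and between 8.41 and 10.14 in the other 8 arrays (median 8.49). It correlated with Epx (r = 0.83, rho 0.81) and most with Qsox1 (0.97), Sgms1 (0.95) and Mcpt8 (0.94), and less with Il2ra (0.18, rho 0.25). The latter value was 0.30 without ES6, 0.28 without ES1, 0.10 without ES5, 0.09 without ES3, 0.08 without ES11 and 0.07 without ES10. Gzmb and Mcpt8 sit in one run of 15 protease genes on chromosome 14 in the RefSeq gene order, of which 11 were measured and 4 were bright (Cma1, Mcpt8, Ctsg and Gzmb). Within that run Ctsg had an SD of 0.35 and r = -0.46 with Gzmb. This was -0.17 without ES7 and ES6, the 2 arrays farthest from the Gzmb median.

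The 10 pairs of the 5 marker genes thus had correlations from 0.18 to 0.89. Genes with r of at least 0.8 were counted among 1112 bright genes with a settled name and an SD of at least 0.5. There were 139 (12.5%) for Gzmb, 116 (10.4%) for Epx, 116 (10.4%) for Arg1, 71 (6.39%) for Il2ra and 34 (3.06%) for Cpa3. Regardless of sign, 9.63% of all pairs among the 1144 bright genes with such an SD reached 0.8. Of the 150 genes with an SD above 1 other than these 5, 49 had their highest correlation with Epx, 42 with Gzmb, 26 with Il2ra, 26 with Arg1 and 7 with Cpa3, and 20 had r below 0.5 with every one of the 5. The genes nearest Cpa3 were the reductase Akr1c12 (0.93), Lrp12 (0.92) and Perp (0.91), and those most opposed by r over all 12 arrays were the monocyte chemokine receptor Ccr2 (-0.80), the secretase Bace1 (-0.79) and the thymic protease Prss16 (-0.78). Without ES2 and ES5 these were -0.63, -0.94 and -0.90.

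List scores put these patterns side by side. A score is the mean deviation of a list's bright genes from their own means. The eosinophil score was between 0.87 and 2.57 in ES3, ES4 and ES9 to ES12, between -2.05 and -1.11 in ES2 and ES5 to ES8, and -0.12 in ES1, so its correlations mainly set these ends apart. It had r = 0.83 (rho 0.83) with the mast cell score, 0.84 (rho 0.80) with the secondary and tertiary granule score and 0.82 (rho 0.83) with the mature neutrophil score. Without ES9 and ES5, the 2 arrays farthest from its median, these were 0.87, 0.79 and 0.74. With the primary granule score it had r = 0.06 (rho 0.09), or 0.41 without the same arrays. Leaving out 1 array moved the primary granule value between -0.10 without ES8 and 0.35 without ES9. With the stem and progenitor score it had r = -0.62 (rho -0.68). Without ES4 the values for mast cell, secondary granule, primary granule and progenitor scores were 0.85, 0.85, 0.00 and -0.71. The mast cell score was highest in ES10 (0.84) and ES12 (0.78) and lowest in ES5 (-1.34), and the secondary granule score highest in ES4 (0.96) and lowest in ES5 (-1.36). The progenitor score spanned -0.43 in ES4 to 0.27 in ES6. The mast cell score had r = 0.73 (rho 0.66) with the secondary granule score, -0.25 (rho -0.31; -0.13 without ES1 and -0.40 without ES4) with the progenitor score and 0.91 (rho 0.90) with the basophil score, shared genes left out. In all, 66 pairs of lists were computed.

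**Figure D4:**
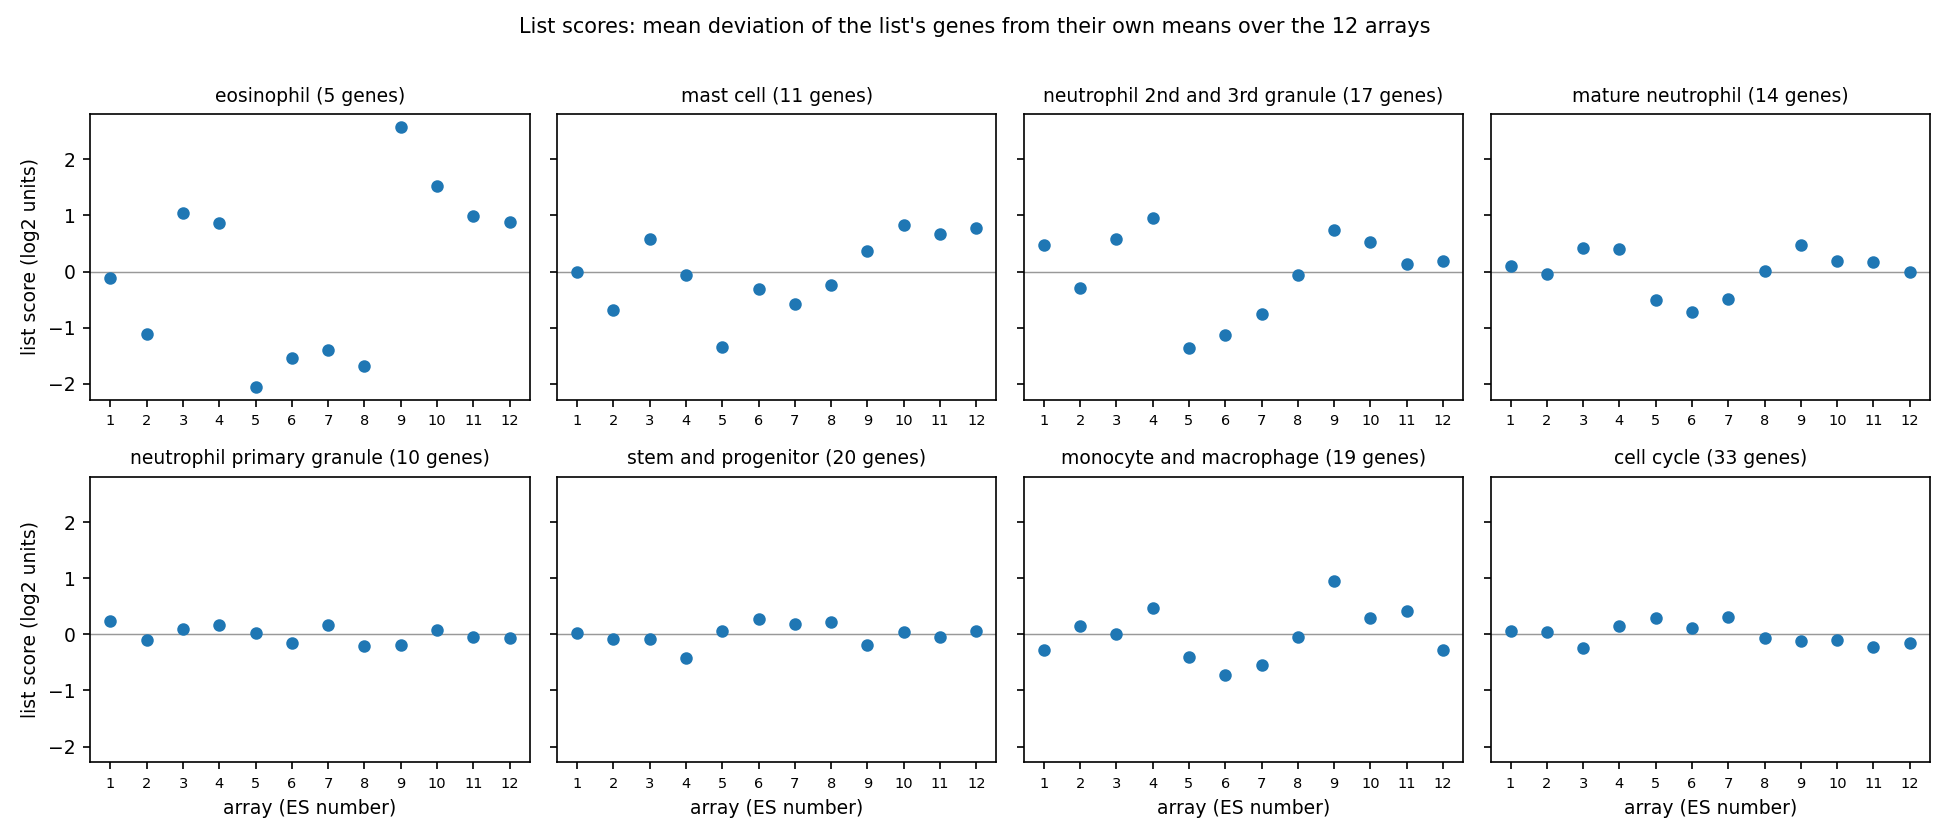
Scores of 8 gene lists (mean deviation of the list's bright genes from their means over the 12 arrays, log2 units) in ES1 to ES12, 1 point per array. The eosinophil score spans -2.05 to 2.57, the primary granule, progenitor and cell cycle scores stay near 0.

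**Figure D5:**
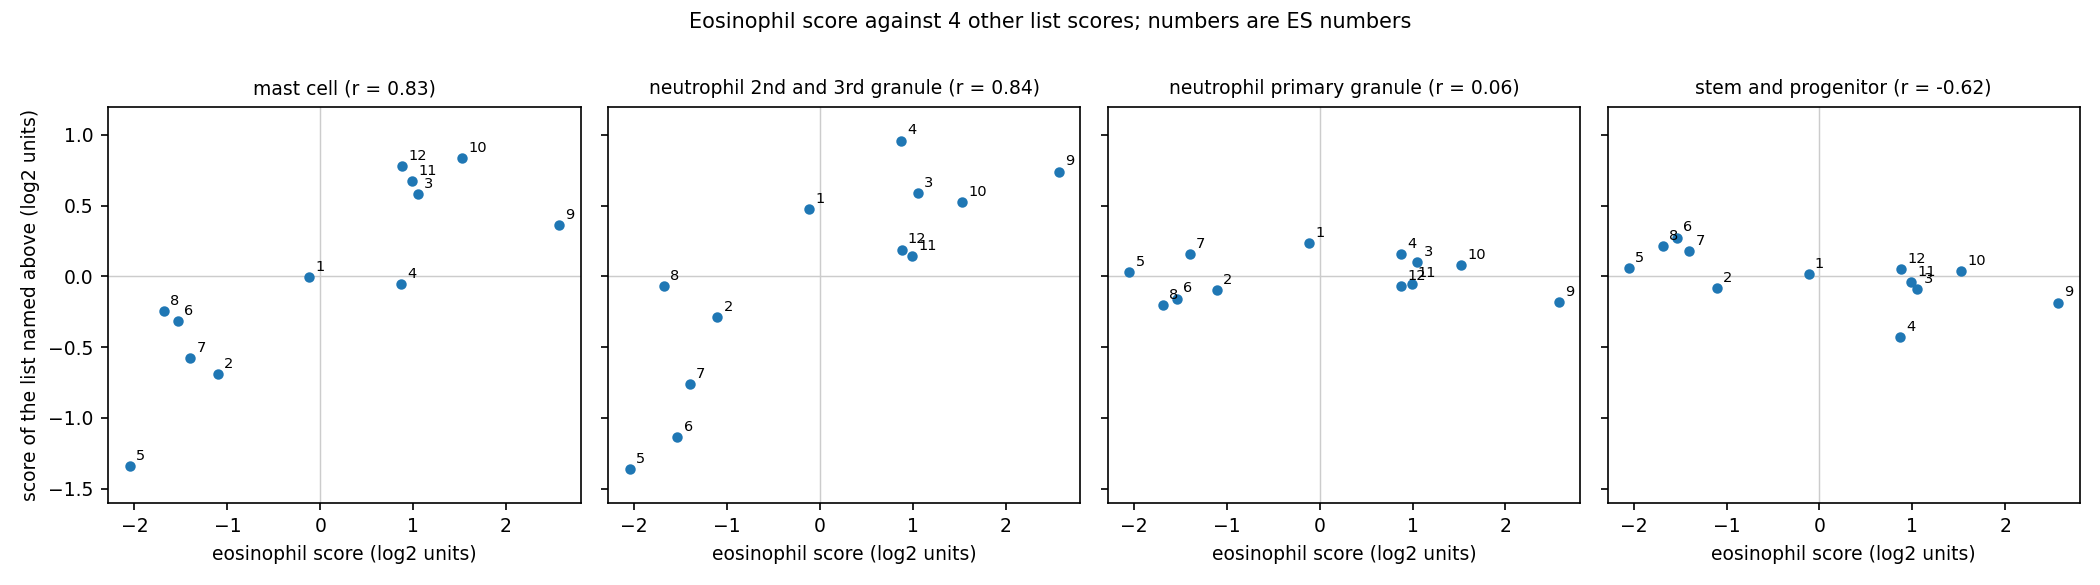
The eosinophil score (horizontal axis, log2 units) against the mast cell, secondary and tertiary granule, primary granule and progenitor scores (vertical axis, log2 units), 1 point per array labelled with its ES number. The first 2 panels slope upward (r = 0.83 and 0.84), the third is flat (0.06) and the fourth slopes down (-0.62).

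Of 25 measured macrophage genes 2 passed the SD limit (8%, against 0.845% of all genes), Mrc1 and Cd14, and they differed in pattern. The list's score was highest in ES9 (0.95), followed by ES4 (0.48) and ES11 (0.42), and lowest in ES6 (-0.72). The mannose receptor Mrc1 ran from 7.67 in ES6 through a median of 8.83 to 11.11 in ES9, with ES4 (10.59) and ES11 (10.40) next. The endotoxin co-receptor Cd14 was instead highest in ES11 (10.40), ES10 (10.32) and ES3 (10.02), with ES9 at 9.56 and ES4 at 8.89, and lowest in ES2 (7.57). The engulfment receptor Mertk was at 8.73 in ES9 and 7.56 in ES4 and at 6.58 or less elsewhere, and the scavenger receptor Marco at 8.98 in ES9, 7.73 in ES4 and 6.55 or less elsewhere. Without ES9 the ranges of Mertk and Marco dropped from 3.37 to 2.20 and from 3.46 to 2.22. Complement genes C1qa, C1qb and C1qc, bright in many tissue macrophages, did not exceed 7.32. The monocyte and macrophage score had r = 0.77 (rho 0.71) with the eosinophil score, and 0.62 without ES9 and ES5. MHC class II genes differed from both: H2-Ab1 was lowest in ES3 (7.31), ES6 (7.67), ES11 (7.96) and ES12 (7.97) and highest in ES10 (9.65), and H2-Eb1 followed it with r = 0.98.

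Cytokine and immediate early genes were high in much the same arrays as the eosinophil and mast cell genes. Of those measured, 7 of 28 (25%) and 3 of 14 (21.4%) passed the SD limit, against 0.845% of all genes. The neutrophil-attracting chemokine Cxcl2 ran from 8.02 in ES5 to 12.20 in ES10, Il1a from 4.66 in ES5 to 9.84 in ES10, and the monocyte-attracting Ccl2 from 6.71 in ES1 to 10.20 in ES10. The early response factors Egr1 (7.89 in ES5 to 11.54 in ES9) and Fos (7.91 in ES5 to 10.87 in ES9) had the same ends, although averaging every probe set gave Egr1 a range of 1.83 and not 3.65. The immediate early score, over 14 genes known to react within minutes to handling as well as to signals, had r = 0.92 (rho 0.91) with the eosinophil score, 0.86 with the mast cell score and 0.96 with the cytokine and chemokine score. Its range was -0.94 in ES5 to 1.06 in ES9. Its part in the eosinophil and mast cell patterns was not tested.

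Cell cycle genes varied about as little as bright genes in general. All 33 measured members were bright and 0 passed the SD limit, which 1.75% of all bright genes did. Their median SD was 0.27, against 0.28 for all bright genes, with Mki67 at 11.09 to 11.66 and Top2a at 11.22 to 11.43. The cell cycle score was highest in ES7 (0.30) and ES5 (0.29) and lowest in ES3 (-0.25). It ran against the mast cell (r = -0.84), eosinophil (-0.67) and secondary granule (-0.61) scores, but not the primary granule score (0.33). After each array was centred on its median gene value these were -0.68, -0.47, -0.32 and 0.57. The steadiest bright genes of the myeloid lists were the protease inhibitor Serpinb1a (SD 0.19), the factors Etv6 (0.21) and Cebpb (0.22), the secreted protein gene Wfdc21 (0.21), Msi2 (0.24) and the granule protease activator Ctsc (0.25). This order rests on the brighter probe sets: over all probe sets the range of Wfdc21 was 1.49 by the mean and that of Ctsc 1.53 by the median, against 0.65 and 0.85. The myeloid factor gene Spi1, which encodes PU.1, lay between 10.30 and 11.53.

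Of 15 measured genes tied to IL-4 and alternative activation, 5 passed the SD limit (33.3%, against 0.845% of all genes). They were Arg1, Mrc1 and Alox15, described above, the lectin gene Mgl2, which ran from 7.51 in ES2 to 11.54 in ES11, and Tgm2, from 7.06 in ES5 to 12.14 in ES3. Among glycolysis and hypoxia genes 2 of 27 passed (7.41%), the aldolase Aldoc and the glucose transporter Slc2a3. The latter was at 7.95 in ES5 and reached 11.75 in ES4. In each of the STAT5 target, megakaryocyte, interferon response, erythroid and myeloid transcription factor lists 1 gene passed, and 2 of 29 cytokine receptor genes. These were 4.55% to 7.69% of the measured genes of each list, against 0.845% of all genes and 1.75% of all bright genes. In the MHC class II, B cell, cholesterol synthesis, pluripotency, fibroblast and endothelial lists 0 passed, where 1.75% of all bright genes did. These lists held 10, 1, 16, 1, 3 and 2 bright genes, too few for 0 to differ from that share. The pluripotency genes Pou5f1 (4.58 to 6.12) and Nanog (5.82 to 6.52) were low throughout.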

How the data were processed

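Each of the 26 samples was read on 1 Affymetrix mouse exon array. The authors deposited log2 signals per probe set, summarised by RMA over the extended exon set per the labels, and the submitters' processing notes name Affymetrix Expression Console; its version and the genome build are not given in the sources used here. Base 2 follows the RMA convention, with values from 0.831 to 15.6.

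Of 631748 probe sets, 306069 were paired with 1 gene symbol, 6067 with several and 319612 with none; only the first were used. Of 21757 symbols, 17747 were current in RefSeq, 3725 were updated through synonyms and 285 were kept. A gene's probe sets were ranked by mean over all 26 arrays, and the median of the brighter 50% was its value, for 18341 genes with at least 4 probe sets. Bright means a maximum above 8 over ES1 to ES12. A list score is the mean, over a list's bright genes, of each value minus that gene's mean over the 12 arrays. The number of arrays limits the precision, and 0 columns belonged to other samples.

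Spread is given as SD and range, and shared patterns as Pearson r, Spearman rho and r without the 2 arrays farthest from the median of the first measure. No p-value is given, since genes were chosen by their spread over the same arrays. Members and the 27 lists (502 genes, 448 measured, 289 bright) were chosen with earlier results of these data known. Named genes were the 20 of largest SD, the 5 markers, up to 4 of largest SD per list, the 3 highest and 3 lowest correlates of each marker, and the 6 steadiest myeloid list genes. Other genes named, and pairs of genes set against each other, were chosen after their values were seen. The list genes Ear1, Siglecf, Elane and S100a9 were among those not analysed here, as they had too few probe sets with a single symbol. The calculations used Python 3.11.15, numpy 2.4.6, pandas 2.3.3 and scipy 1.17.1, with matplotlib 3.10.9 for plots, and were tested on simulated data. Alternatives changed the gene summary, the scaling, the filter on dim genes, the measure of spread and, in turn, the array left out.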

Additional observations from a re-analysis of the deposited data

How the results depend on the processing

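No paired analysis was possible because the labels give ES1 to ES12 no shared replicate numbers and no test was made. With the mean over all probe sets, 99 genes had an SD above 1, of which 87 were among the 155, while the median over all probe sets gave 162, of which 117 were. Leaving out each array in turn gave 139 to 167 genes, and 38 to 51 with a range of at least 4. With the median over all probe sets 71 genes had such a range.

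Correlations with the progenitor score moved with the gene summary. The eosinophil value was -0.37 with the mean over all probe sets, -0.35 with the median and -0.32 with at least 8 probe sets, where the eosinophil and secondary granule scores had 0.72. The secondary granule and progenitor scores had -0.50, -0.49 and -0.51 under the same settings. The mast cell and progenitor scores had 0.10 with the mean and 0.072 with at least 8 probe sets, against -0.25. Leaving out 1 array gave 0.80 to 0.89 for eosinophil and mast cell scores, 0.80 to 0.88 for eosinophil and secondary granule, 0.59 to 0.81 for mast cell and secondary granule, -0.71 to -0.51 for eosinophil and progenitor, -0.78 to -0.61 for secondary granule and progenitor, -0.40 to -0.13 for mast cell and progenitor, -0.10 to 0.35 for eosinophil and primary granule, -0.08 to 0.09 for mast cell and primary granule, 0.07 to 0.39 for both granule scores and -0.46 to -0.06 for primary granule and progenitor.

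Of 142 correlations rerun under the alternatives, 109 were at least 0.5 in size. These 109 kept their sign under every alternative run, and 91 stayed at that size. The 142 included the highest and lowest correlates of each marker and pairs of genes chosen after their values were seen. The stability of sign was therefore partly fixed by the choice of pairs and is no support for them. The range moved by over 1.5 times under at least 1 alternative in 26 of 127 named genes. The causes were not tested.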

Other observations

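Some further groups of genes were gathered after their values were seen, and a few of their members (Cd200r3, Hoxa9 and Marco) stand in the lists above. The score of genes of the response to amino acid shortage was highest in ES8 (0.71) and ES6 (0.46) and lowest in ES12 (-0.59). Its members did not vary as one group. Among the 13 bright ones with an SD of at least 0.5, 20 of 78 pairs had a correlation below 0. Chac1 (9.96) and Ddit3 (8.74) were highest in ES4, where the score was -0.38, Atf3 in ES9 and Slc7a11 in ES10. Of 26 measured genes, 4 had a maximum above 8 and an SD above 1, against 0.845% of all genes. Because the genes were gathered with their values known, this difference was partly fixed by the choice and is no support for the group. The kinase-like regulator Trib3 ran from 8.45 in ES12 to 12.08 in ES8, Cth from 5.52 in ES12 to 11.10 in ES2, and the arginine transporter Slc7a3 from 5.37 in ES12 to 9.00 in ES8. The fourth, the secreted hormone gene Stc2, differed, with its lowest value of 6.12 in ES4, its highest of 9.59 in ES11 and 9.12 in ES12. Cth and Slc7a3 had r = 0.95 (rho 0.97). Atf4, the transcription factor of this response, which is controlled largely at translation, lay between 11.76 and 12.32.

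Genes of lipid uptake and lysosomes in macrophages had scores of 1.35 in ES9, 0.55 in ES4, 0.47 in ES11 and 0.45 in ES10, and the lowest of -0.80 in ES6. Of 21 measured, 6 passed the SD limit, against 0.845% of all genes, a difference that was again partly fixed by the choice of genes. The fatty acid receptor Cd36 ran from 6.47 in ES5 to 10.90 in ES9, the proton pump subunit Atp6v0d2 from 6.71 in ES6 to 11.03 in ES9, and the protease Ctsk from 5.30 in ES6 to 9.33 in ES4. Fabp4 was at 9.44 in ES4 and 8.90 in ES9, and at 4.96 in ES1. The other 2 differed. Pla2g7, which cleaves oxidised lipids, was highest in ES3 (11.32), with ES9 at 11.24 and ES4 at 8.55, and the oxidised lipoprotein receptor Olr1 was highest in ES10 (10.67) and ES3 (10.64), with ES4 at 9.21.

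The CD200 receptor genes Cd200r1, Cd200r2 and Cd200r3 had SDs of 1.02, 1.47 and 1.32, with a median r of 0.93 over their 3 pairs, and all were lowest in ES5. They are close paralogs, so probe sets may read more than 1 of them. Within the HoxA cluster Hoxa9 had an SD of 1.36, and Hoxa7 one of 0.42.

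Probe sets without a single gene symbol numbered 325679. Of these, 37107 had a maximum above 8, and 856 of those (2.31%) had an SD above 1, against 1.97% of the bright probe sets with 1 symbol.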
